A study of Mus musculus with 50 samples.

Results

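Frontal cortex of *Setd1a*+/- and wild-type mice was compared at postnatal day 7 (P7), one of 5 ages in a series of 50 RNA sequencing libraries. Libraries were chosen by the stage and genotype in their labels, which gave 10 libraries, and 9 of these were compared, 5 labelled Het and 4 labelled WT. Wild-type replicate 2 was left out of the comparison because it carries transcripts of hindbrain and choroid plexus, and its values are shown beside those of the other libraries. The remaining 40 libraries, from E14, E18, P35 and P70, entered the fit and served for comparison with other ages.

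The *Setd1a*+/- mice carry 1 loss-of-function tm1d allele from a knockout-first design, and the wild-type mice carry none. Labels give the strain of both genotypes as C57BL/6NTac, whereas the study's methods give a mixed background of C57BL/6NTac and C57BL/6J. By the methods, the mice were males bred from heterozygous fathers and wild-type mothers, and postnatal tissue came from littermates. The allele is constitutive and is not limited to a cell type, and each library comes from the bulk tissue of 1 mouse, so that fewer cells of a type and less RNA per cell cannot be told apart.

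*Setd1a* encodes a methyltransferase of lysine 4 on histone H3 (H3K4), the catalytic subunit of a COMPASS complex that marks the promoters of active genes, and loss-of-function variants of the human gene are associated with schizophrenia. In the first postnatal week, cortical neurons have been born and have largely reached their layers, synapses are forming, astrocytes are multiplying and myelination has barely begun.

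Total counts at P7 ranged from 37467708 (*Setd1a*+/- replicate 2) to 39639802 (wild-type replicate 1), so depth differed little between the libraries. Levels are given in CPM, a gene's count relative to its library's total after scaling by TMM, a normalization that equalises the bulk of genes between libraries. The stage was checked against markers of early and late development. Of 8 early markers, among them *Dcx*, *Sox11* and *Nes*, 8 had a mean at P7 between those at E18 and P35. Of 9 late markers, 8 did, and the exception was *Syt2*, at 4.98 CPM at P7 and 5.05 CPM at E18. The 7 markers of frontal cortex identity, led by *Slc17a7*, summed to between 1505 and 1703 CPM in the 9 compared libraries. Those libraries also held 5 to 21 counts of *Xist* and 4940 to 6254 counts of 4 Y-linked genes, as male tissue does. No pair of libraries of 1 genotype agreed within sampling noise, since chi-square per degree of freedom was at least 5.10 (*Setd1a*+/- replicates 1 and 2).

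Wild-type replicate 2 was unlike the other P7 libraries. It differed by more than 2-fold from the mean of the other 4 wild-type libraries at 686 genes that were higher in it (4.18% of 16396) and 182 that were lower (1.11%). Each of the other 4 wild-type libraries was set against the remaining 3, without wild-type replicate 2, and each *Setd1a*+/- library against the other 4. Higher genes numbered 32 (0.195%), 1 (0.0061%), 29 (0.177%) and 3 (0.0183%) in wild-type replicates 1, 3, 4 and 5 and 29 (0.177%), 8 (0.0488%), 3 (0.0183%), 13 (0.0793%) and 13 (0.0793%) in *Setd1a*+/- replicates 1 to 5. Lower genes numbered 7 (0.0427%), 40 (0.244%), 1 (0.0061%) and 5 (0.0305%) in the former and 25 (0.152%), 2 (0.0122%), 36 (0.22%), 14 (0.0854%) and 14 (0.0854%) in the latter, so none came near wild-type replicate 2. Transcripts of choroid plexus, the tissue that secretes cerebrospinal fluid, led the difference. The 15 choroid plexus markers summed to 665 CPM in wild-type replicate 2 and to between 10.1 and 14.2 CPM in the other 9 libraries. All 15 were higher in wild-type replicate 2 than in each of the 9. Their most abundant gene there was *Ttr*, the transthyretin of cerebrospinal fluid, at 598 CPM, whereas it was *Aqp1*, with a mean of 2.78 CPM, in the others. *Ttr* had 24377 counts in wild-type replicate 2 and between 0 and 20 counts in each of the other 9 libraries.

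Markers of hindbrain, cerebellum, midbrain and thalamus were raised in the same library. The 22 hindbrain markers, mostly Hox genes, summed to 47.6 CPM in it against 0.912 to 1.99 CPM in the other 9, and 17 of the 22 were above all 9. The most abundant was *Slc6a5*, the glycine transporter of inhibitory hindbrain neurons, at 27.3 CPM. Of these markers, *Hoxb7*, *Hoxb8* and *Hoxc6* were at 0 in wild-type replicate 2. The 10 cerebellum and midbrain markers summed to 1130 CPM against 124 to 161 CPM, with *Zic1* leading both, and the 6 thalamus markers to 244 CPM against 72.4 to 87.1 CPM. With 0.5 CPM added to both sides, which holds down genes that are scarce elsewhere, the 10 genes with the largest ratio over the other wild-type libraries were *Ttr*, *Barhl1*, *Uncx*, *En2*, *Cnpy1*, *Nhlh1*, *Lhx1*, *Mab21l1*, *Fat2* and *Nhlh2*, with log2 ratios from 9.82 to 5.11. Most of them are transcription factors, and *Barhl1*, *En2* and *Lhx1* are known from midbrain and cerebellum. *Barhl1* measured 84.8 CPM in wild-type replicate 2 and at most 0.654 CPM in the other 9 libraries.

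Glial and proliferative transcripts differed too. Myelin genes, led by *Mbp* at 715 CPM, summed to 1626 CPM in wild-type replicate 2 against 228 to 294 CPM elsewhere, and cell cycle genes to 675 CPM. Frontal cortex identity markers were lower, at 885 CPM, as were the 18 layer markers of excitatory neurons, at 1630 CPM against 3041 to 3306 CPM. The part that dissection of other tissue has in these differences was not tested.

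**Figure D1:**
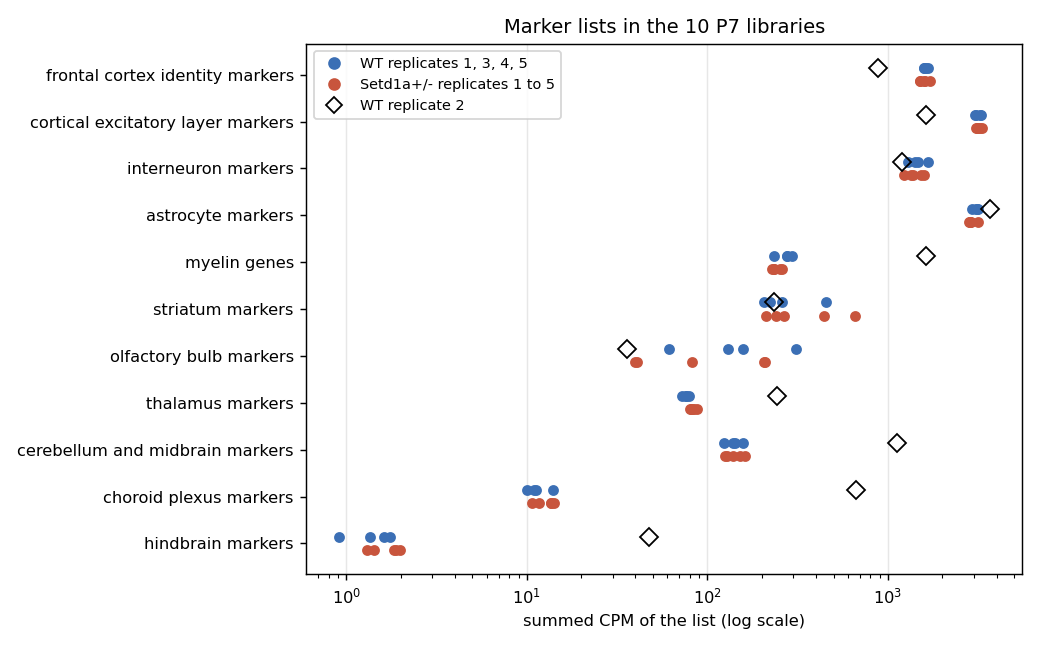
Summed CPM of each marker list (log axis) in the 10 P7 libraries, with 1 point per library. Wild-type replicate 2 (open diamond) lies far above the other libraries for choroid plexus, hindbrain, cerebellum and midbrain, thalamus and myelin lists, and below them for frontal cortex identity markers, at 885 CPM against 1505 to 1703 CPM.

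*Setd1a* (ENSMUSG00000042308, GRCm38 chr7:127776670-127800122) was not lower in libraries labelled Het. It measured 72.5, 70.2, 70.7 and 71.3 CPM in wild-type replicates 1, 3, 4 and 5 and 81.9, 78.3, 76.4, 83.5 and 83.7 CPM in *Setd1a*+/- replicates 1 to 5. All 5 *Setd1a*+/- values lay above all 4 wild-type values, as they did for 1.37% of tested genes. Wild-type replicate 2 measured 76.2 CPM. The log2 fold change was 0.18 (SE, the standard error, 0.056), and it did not pass the test across all genes (adjusted p = 0.438, edgeR). Counts taken over the whole gene include any transcript of the altered allele that keeps the other exons, so they do not check the genotype labels. The paper cites earlier work for a loss of Setd1a protein in heterozygous cortex, and these RNA counts do not measure protein.

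A second annotated gene, *Gm49388*, overlaps *Setd1a*, and a fragment on shared bases was counted for both. Bases shared with any other gene make up 52.3% of the exonic bases of *Setd1a*. *Gm49388* measured 57.4 to 60.2 CPM in the 4 wild-type and 60.7 to 67.0 CPM in the 5 *Setd1a*+/- libraries, at a log2 fold change of 0.13 (SE 0.051; adjusted p of 0.693 by edgeR). *Hsd3b7*, which overlaps the end of *Gm49388*, measured 9.65 to 10.1 CPM in wild-type and 7.30 to 10.1 CPM in *Setd1a*+/- libraries. The count of *Setd1a* less that of *Gm49388*, which leaves at least part of the upstream exons, was 11.1 to 13.6 CPM in wild-type and 15.6 to 17.7 CPM in *Setd1a*+/- libraries. With all counts of *Hsd3b7* added back, it was 20.9 to 23.7 CPM and 23.0 to 26.7 CPM, and the genotypes then overlapped. Neither sum isolates the exons that the allele alters, and transcripts of the 2 alleles cannot be told apart in these counts.

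Other H3K4 methyltransferases and their partners differed little. The paralog *Setd1b* measured 69.99, 70.2, 76.2 and 71.6 CPM in wild-type replicates 1, 3, 4 and 5 and 65.0 to 72.5 CPM in *Setd1a*+/- libraries, which overlapped (log2 fold change −0.07, SE 0.10). Per kilobase of exon, the wild-type mean was 10.5 RPKM for *Setd1a* and 5.97 RPKM for *Setd1b*. Among the 6 SET1/MLL methyltransferases, 3 lay under 0, and the median log2 fold change was 0.01. This median took either sign with each of the 9 libraries left out (−0.0165 to 0.0404). Of 16 COMPASS subunits, 5 were under 0, and the smallest unadjusted p belonged to *Pagr1a*, at a log2 fold change of −0.11 (SE 0.056). Of the 6 H3K4 demethylases, which remove the mark, 1 was under 0, with a median of 0.04. No member of the 3 lists was called by edgeR (smallest adjusted p = 0.438). *Pagr1a* and *Setd1a* had an unadjusted p under 0.05, as did 4.37% of all tested genes.

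Across the 16396 protein-coding genes tested with edgeR, 7 were called at an adjusted p under 0.05, which is 0.0427%, and all 7 were lower in *Setd1a*+/- cortex. They were *Odr4*, *Josd2*, *Slx4ip*, *Ccdc91*, *Tmco6*, *Dnajb2* and *Foxred1*. An unadjusted p under 0.05 was reached by 716 genes (4.37%), of which 524 were lower (3.2% of those tested) and the others higher (1.17%). After TMM scaling, which itself centres the bulk of genes, 49.4% of the 16396 genes lay below 0. Higher genes called in the 49 libraries numbered 0 by edgeR, limma-voom, limma-trend and DESeq2 alike. Below, a call is one by edgeR in this fit unless another is named. The 5 *Setd1a*+/- values lay below all 4 wild-type values for 442 tested genes (2.7%), and above them for 224 (1.37%).

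*Odr4* (chr1:150361305-150393080), whose relative in nematodes helps to deliver odorant receptors to the cell surface, had the smallest p. It measured 33.3, 32.9, 33.3 and 34.0 CPM in wild-type replicates 1, 3, 4 and 5 and 28.8, 27.2, 28.2, 28 and 25.7 CPM in *Setd1a*+/- replicates 1 to 5. The genotypes did not overlap, and the wild-type values were the tighter, at 33.4 ± 0.431 (SD, n = 4) against 27.6 ± 1.21 CPM (SD, n = 5). The log2 fold change was −0.27 (SE 0.043; adjusted p of 0.00181 by edgeR), a fall seen in 5 of 5 *Setd1a*+/- libraries.

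*Josd2*, a deubiquitinating enzyme of the Josephin family, measured 27.8, 25.9, 26.04 and 23.0 CPM in the wild-type and 19.6, 19.6, 19.3, 19.02 and 21.1 CPM in the *Setd1a*+/- libraries. Here the *Setd1a*+/- values were close together and the wild-type values spread, without overlap. Its log2 fold change was −0.38 (SE 0.069; adjusted p of 0.0127 by edgeR). *Slx4ip*, a partner of the nuclease scaffold Slx4, measured 16.8, 13.3, 16.3 and 16.99 CPM in the wild-type and 12.4, 12.3, 11.4, 10.4 and 11.7 CPM in the *Setd1a*+/- libraries. Wild-type replicate 3 was the lowest of its group and still lay above every *Setd1a*+/- library. The log2 fold change of *Slx4ip*, −0.44 (SE 0.081; adjusted p of 0.0127 by edgeR), was the largest fall among the 7.

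*Ccdc91*, a coiled-coil protein of the trans-Golgi network, measured 25.1, 23.7, 23.7 and 22.2 CPM in the wild-type and 18.7, 20.3, 20.3, 18.8 and 19.5 CPM in the *Setd1a*+/- libraries, which did not overlap. Its log2 fold change was −0.28 (SE 0.054; adjusted p of 0.0219 by edgeR). *Tmco6*, a predicted membrane protein, measured 12.5, 13.7, 10.1 and 12.4 CPM in the wild-type and 7.77, 9.48, 8.67, 9.03 and 10.3 CPM in the *Setd1a*+/- libraries. It was the one called gene whose genotypes overlapped, since wild-type replicate 4 lay below *Setd1a*+/- replicate 5. Its log2 fold change was −0.43 (SE 0.084; adjusted p of 0.0238 by edgeR).

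*Dnajb2*, a co-chaperone of heat shock proteins that is abundant in neurons, measured 52.6, 56.0, 52.0 and 51.9 CPM in the wild-type and 43.2, 41.9, 45.9, 44.5 and 44.2 CPM in the *Setd1a*+/- libraries. The genotypes were separated by a gap wider than the range of either. *Dnajb2* had a log2 fold change of −0.27 (SE 0.054; adjusted p of 0.0238 by edgeR). *Foxred1*, an assembly factor of respiratory complex I, measured 32.1, 33.3, 33.1 and 30.8 CPM in the wild-type and 23.1, 29.1, 24.0, 26.7 and 26.8 CPM in the *Setd1a*+/- libraries. Its *Setd1a*+/- values were the more spread, with replicate 2 nearest to the wild-type. The log2 fold change of *Foxred1* was −0.32 (SE 0.064; adjusted p of 0.0238 by edgeR).

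**Figure D2:**
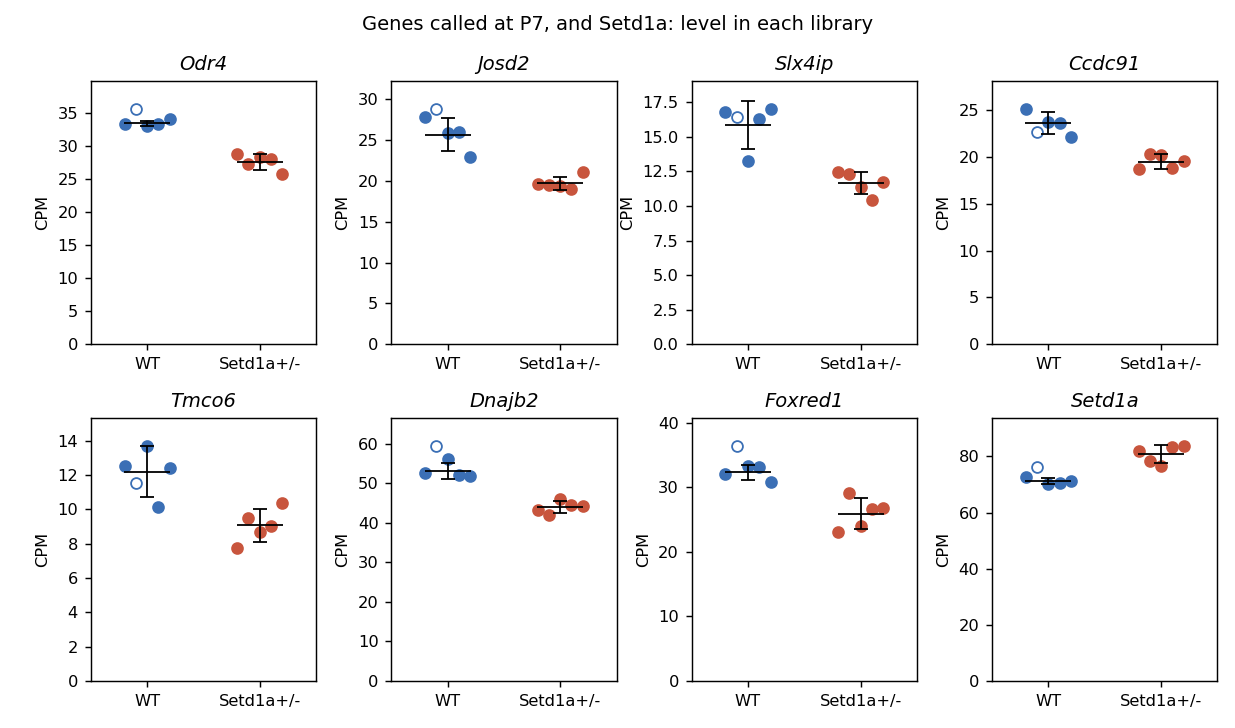
Level in CPM of the 7 called genes and of *Setd1a* in each P7 library, with the mean and SD of each genotype in black; the open circle is wild-type replicate 2, which is not in the mean. The *Setd1a*+/- points lie below the wild-type points for 6 of the called genes, overlap them for *Tmco6*, and lie above them for *Setd1a*.

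The calls rest on small differences and few mice. In a fit of the 9 P7 libraries alone, 29 genes were called (0.186%), 25 lower and 4 higher, with 5 of the 7 among them but not *Foxred1* and *Tmco6* (adjusted p = 0.0597 and 0.113, edgeR), and an unadjusted p under 0.05 was reached by 985 lower and 682 higher genes. With wild-type replicate 2 added to these 9, 0 were called, and limma-voom called only *Odr4* in the 49 libraries. A replicate block in the 49 libraries, which pairs same-numbered libraries of an age, also left 0 called. It is not a like-for-like check, since its extra terms leave less information on the spread. In addition, *Setd1a*+/- replicate 2 has no partner there and adds nothing to the P7 estimate. Under the block, the log2 fold changes of the 7 ran from −0.46 (*Slx4ip*) to −0.26 (*Dnajb2*). When each of the 9 libraries was left out in turn, the count of called genes lay between 1 and 6, and *Odr4* was called each time. It fell to 1 without wild-type replicate 1 or *Setd1a*+/- replicate 4, to 2 without wild-type replicate 3 or 4, and to 3 without *Setd1a*+/- replicate 1 or wild-type replicate 5. All 7 genes kept a log2 fold change under 0 in each of these fits.

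The lower genes that came next by p were *Tmem143*, *Rmnd1* and *D2hgdh*, and none of the 3 was called (adjusted p = 0.0846, 0.0846 and 0.0871, edgeR). DESeq2 called all 3, as did edgeR with wild-type replicate 2, and the fit of the 9 P7 libraries alone called *Tmem143*. *Tmem143* ranged from 18.1 to 19.4 CPM in the wild-type and from 14.9 to 16.1 CPM in the *Setd1a*+/- libraries. *Rmnd1*, which is needed for translation in mitochondria, ranged from 23.5 to 27.2 CPM and from 19.2 to 22.1 CPM. *D2hgdh*, a mitochondrial dehydrogenase of hydroxyglutarate, ranged from 9.65 to 12.4 CPM and from 7.04 to 8.98 CPM. For each of the 3, all *Setd1a*+/- values lay below all wild-type values, and the estimates were −0.29 (SE 0.064), −0.29 (SE 0.065) and −0.42 (SE 0.095) on the log2 scale.

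Promoters of the leading lower genes are shown because the COMPASS complexes that hold Setd1a include a subunit, Cxxc1, that binds unmethylated CG. Each window runs from 250 bases before to 50 bases after a start site in RefSeq (GRCm38.p6), written 5′ to 3′ on the strand of the gene, with every CG, the motif searched, in capitals. CG reads the same on both strands. The windows are chr1:150393031-150393330 (minus strand) for *Odr4*, chr7:44467730-44468029 (plus) for *Josd2* and chr2:136890968-136891267 (plus) for *Slx4ip*, the 3 lower genes of smallest p. Beside them stand the first 2 higher genes by p that have a window, neither of them called, *Ptprh* at chr7:4603992-4604291 (minus) and *Ccdc43* at chr11:102697676-102697975 (minus).
Odr4: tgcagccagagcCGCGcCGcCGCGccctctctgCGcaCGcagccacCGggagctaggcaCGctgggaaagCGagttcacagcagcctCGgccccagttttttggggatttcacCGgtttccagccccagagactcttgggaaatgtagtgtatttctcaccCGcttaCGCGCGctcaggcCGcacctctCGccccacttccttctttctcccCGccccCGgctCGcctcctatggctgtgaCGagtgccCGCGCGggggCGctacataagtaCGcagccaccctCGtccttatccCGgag
Josd2: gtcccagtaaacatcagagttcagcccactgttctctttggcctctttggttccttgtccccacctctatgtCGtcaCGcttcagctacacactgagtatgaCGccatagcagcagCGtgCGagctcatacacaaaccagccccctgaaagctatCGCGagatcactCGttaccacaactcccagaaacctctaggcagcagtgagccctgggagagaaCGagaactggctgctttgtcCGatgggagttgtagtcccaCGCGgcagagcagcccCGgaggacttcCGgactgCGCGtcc
Slx4ip: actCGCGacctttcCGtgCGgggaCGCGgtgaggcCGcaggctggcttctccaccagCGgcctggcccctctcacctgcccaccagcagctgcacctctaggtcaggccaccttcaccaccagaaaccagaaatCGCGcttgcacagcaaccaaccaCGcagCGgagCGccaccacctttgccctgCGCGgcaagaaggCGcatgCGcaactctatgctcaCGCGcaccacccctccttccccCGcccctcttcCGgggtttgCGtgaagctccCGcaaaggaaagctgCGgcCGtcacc
Ptprh: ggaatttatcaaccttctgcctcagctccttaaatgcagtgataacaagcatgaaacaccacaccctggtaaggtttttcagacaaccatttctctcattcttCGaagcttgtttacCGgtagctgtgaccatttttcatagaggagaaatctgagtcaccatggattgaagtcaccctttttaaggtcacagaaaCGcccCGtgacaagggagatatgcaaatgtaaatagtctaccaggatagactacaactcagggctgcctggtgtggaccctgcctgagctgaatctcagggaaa
Ccdc43: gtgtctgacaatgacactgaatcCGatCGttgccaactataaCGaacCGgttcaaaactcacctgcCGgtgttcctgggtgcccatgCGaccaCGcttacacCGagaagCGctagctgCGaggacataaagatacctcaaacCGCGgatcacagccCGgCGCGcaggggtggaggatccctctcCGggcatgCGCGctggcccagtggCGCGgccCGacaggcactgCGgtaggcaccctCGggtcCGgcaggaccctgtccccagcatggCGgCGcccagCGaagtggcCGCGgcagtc

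The *Odr4* window holds 29 CG, that of *Josd2* 16, that of *Slx4ip* 25, that of *Ptprh* 4 and that of *Ccdc43* 29. A window was matched by symbol for 12540 of the 16396 tested genes (76.5%), of which 99.23% hold at least 1 CG, with a median of 19 and quartiles of 10 and 27. A window was found for 6 of the 7 called genes. *Foxred1* had 31 CG, *Dnajb2* 20 and *Ccdc91* 11, so the called genes ranged from 11 to 31, which spans the middle of all windows and passes the upper quartile. Of the higher genes, *Setd1a* had 35, *Cdc16* 22, *Slc25a48* 14, *Opalin* 4 and *Gjb1* 3, so these ranged from 3 to 35. These counts are a description and say nothing of binding.

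A start site shared with a gene on the other strand was looked for after the values were seen, between 1000 bases upstream and 300 bases downstream of the annotated start. Such a protein-coding neighbour was found for 11.2% of the 16396 tested genes, for 2 of the 7 called genes and for 4 of the 10 leading lower genes. The pairs were *Odr4* with *Tpr*, *Slx4ip* with *Mkks* and with *AL731706.1*, *Tmem143* with *Syngr4* and *Rmnd1* with *Armt1*. None of these neighbours was called by edgeR. *Tpr*, a protein of the nuclear pore, had a log2 fold change of 0.08 (SE 0.041), against −0.27 for *Odr4*. *Mkks*, a chaperonin-like protein, had −0.11 (0.080), *AL731706.1* −0.13 (0.082) and *Armt1* −0.11 (0.078). The estimate for *Syngr4*, −0.31, was imprecise (SE 0.55). Counting did not use strand, so fragments of bases that overlapping genes share cannot be assigned to either of them. Bases shared with any other gene make up 4.29% of the exonic bases of *Odr4* and 2.91% of those of *Slx4ip*.

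None of the 10 higher genes with the smallest p was called by edgeR (adjusted p from 0.190 to 0.438). They were *Fbxo24*, *Ptprh*, *Gm14418*, *Ccdc43*, *Cdc16*, *Slc25a48*, *Opalin*, *Setd1a*, *Gjb1* and *Abra*. *Cdc16*, a subunit of the anaphase-promoting complex, measured 62.6, 64.3, 65.3 and 63.2 CPM in the wild-type and 69.1, 68.6, 70.3, 70.2 and 70.8 CPM in the *Setd1a*+/- libraries. Its genotypes did not overlap, at a log2 fold change of 0.13 (SE 0.038), but wild-type replicate 2 measured 74.6 CPM, above all of them. *Ccdc43* ranged from 20.1 to 21.5 CPM and from 21.7 to 24.1 CPM (log2 fold change 0.18, SE 0.052).

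Apart from *Setd1a*, the rest were scarce transcripts. *Ptprh*, a receptor tyrosine phosphatase, measured 2.17, 1.85, 2.83 and 2.68 CPM in the wild-type and 4.57, 3.48, 3.54, 3.42 and 2.83 CPM in the *Setd1a*+/- libraries. The highest wild-type and the lowest *Setd1a*+/- value overlapped, and the log2 fold change was 0.58 (SE 0.15). *Fbxo24*, an F-box protein, had 6 to 13 counts in each wild-type and 9 to 24 counts in each *Setd1a*+/- library. *Gjb1*, a connexin of myelinating glia, ranged from 0.728 to 1.02 CPM and from 1.17 to 1.60 CPM. Near the limit of counting were *Slc25a48*, a mitochondrial carrier, with 2 or 3 counts in each wild-type and 4 to 11 in each *Setd1a*+/- library, and *Abra*, with 0 counts in the wild-type and 1 to 3 in each *Setd1a*+/- library. *Opalin*, a myelin gene, had 0 counts in the 4 wild-type libraries, 6, 0, 1, 1 and 7 in *Setd1a*+/- replicates 1 to 5, and 17 in wild-type replicate 2. For *Opalin* and *Abra* no fold is given.

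*Gm14418* belongs to a cluster of zinc finger genes at the end of chromosome 2, near-identical copies among which the assignment of fragments is uncertain. It measured 2.01, 1.36, 1.54 and 1.57 CPM in the wild-type and 2.38, 3.07, 3.59, 3.56 and 2.93 CPM in the *Setd1a*+/- libraries. The genotypes did not overlap (log2 fold change 0.94, SE 0.25; adjusted p of 0.244 by edgeR). Its neighbours *Gm14322* and *Gm14403* stood at 0.50 (SE 0.16) and 0.79 (SE 0.25), and *Gm14419* at 0.73 (SE 0.35). Of 31 tested genes in the interval that holds the cluster, *Gnas* among them, 10 had a log2 fold change under 0, 5 were higher and 1 was lower at an unadjusted p under 0.05 (1.17% and 3.2% of all tested genes), and 0 were called in the main fit. *Gm14418* was called in the fit of the 9 P7 libraries alone. The median of the 31 was 0.04, and it ran from 0.00608 to 0.0825 with each of the 9 libraries left out.

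Genes near the targeted locus lay mostly below 0. Of 114 tested genes within 2 Mb of *Setd1a*, 75 (65.8%) had a log2 fold change under 0, against 49.4% of all tested genes, and the median was −0.04. It lay between −0.05 and −0.03 with each of the 9 libraries left out. An unadjusted p under 0.05 was reached by 9 lower and 2 higher genes (3.2% and 1.17% of all tested genes), and 0 were called by edgeR (smallest adjusted p = 0.381). *Orai3*, a calcium channel subunit, led them, with a mean of 13.5 CPM in the wild-type and 10.1 CPM in the *Setd1a*+/- libraries and a log2 fold change of −0.43 (SE 0.13). *Prr14* and *Zfp689* followed, at −0.17 (0.055) and −0.23 (0.076). In a mixed background, strain sequence linked to the targeted allele and the allele itself cannot be told apart at these genes. *Nnt*, which is partly deleted in C57BL/6J, ranged from 10.2 to 14.5 CPM in the wild-type and from 10.1 to 14.04 CPM in the *Setd1a*+/- libraries, with a log2 fold change of 0.01 (SE 0.14).

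Nuclear genes for mitochondrial proteins lay mostly below 0. Complex I, the entry point of electrons into the respiratory chain, had 27 of 37 subunits under 0 (49.4% of all tested genes) and a median log2 fold change of −0.04, and 0 were called by edgeR. *Ndufv3* (50.7 against 44.6 CPM on average, log2 fold change −0.19, SE 0.060), *Ndufc1* (30.5 against 25.8 CPM, −0.24, 0.089) and *Ndufa7* (52.6 against 46.1 CPM, −0.19, 0.078) were the 3 at an unadjusted p under 0.05, as were 3.2% of all genes in this direction. Each of these had all *Setd1a*+/- values below all wild-type values, and 5 of the 37 subunits did, against 2.7% of all genes. Of 19 assembly factors of complex I, 15 were under 0, with a median of −0.04, and *Foxred1* was the 1 called (0.0427% of all tested genes), a call it lost in 12 of 23 other settings. *Tmem126b* followed at −0.21 (SE 0.071). Of 39 subunits of complexes II to V, 30 were under 0, with a median of −0.03, and 0 were called or had an unadjusted p under 0.05.

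The medians of these 3 lists stayed under 0 when scaled by library size or DESeq2 size factors and with each of the 9 libraries left out. Genes for the mitochondrial translation machinery lay mostly below 0 as well. Of 17 mitochondrial tRNA synthetases, which load amino acids onto tRNA, 12 were under 0, with a median of −0.06, and 4 lower and 0 higher members had an unadjusted p under 0.05, against 3.2% and 1.17% of all tested genes. *Vars2* measured 40.6, 38.9, 42.3 and 40.1 CPM in the wild-type and 34.5, 35.01, 36.4, 34.9 and 36.1 CPM in the *Setd1a*+/- libraries. It did not pass the test across all genes, although the genotypes did not overlap (log2 fold change −0.19, SE 0.053; adjusted p of 0.252 by edgeR), and it was called with wild-type replicate 2 (0.043). *Tars2* and *Nars2* followed at −0.16 (0.052) and −0.14 (0.066). Of 78 mitochondrial ribosomal proteins, 54 were under 0, with a median of −0.03, 5 lower and 1 higher member had an unadjusted p under 0.05 (3.2% and 1.17% of all genes), and *Mrpl36*, *Mrps18b* and *Mrps10* led at −0.24 (0.074), −0.21 (0.078) and −0.21 (0.083). None of the members of these 2 lists was called by edgeR.

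Cytosolic ribosomal proteins lay mostly above 0, with 7 of 81 under 0 and a median of 0.05 (0.04 to 0.06 with each library left out), and 0 were called or had an unadjusted p under 0.05. The smallest p belonged to the scarce *Rpl3l*, at 0.304 and 0.174 CPM on average (log2 fold change −0.80, SE 0.40), and *Rplp0*, a protein of the ribosomal stalk, averaged 451 CPM in the wild-type and 484 CPM in the *Setd1a*+/- libraries (log2 fold change 0.10, SE 0.054). Transcripts encoded by the mitochondrial genome were under 0 for 2 of 13, with a median of 0.05, and 0 were called. The share of all counts on 37 mitochondrial genes was 1.80%, 1.78%, 1.88% and 1.92% in wild-type replicates 1, 3, 4 and 5 and 1.87%, 1.85%, 1.87%, 2.00% and 1.81% in *Setd1a*+/- replicates 1 to 5. The ranges overlapped, and the means, 1.84% ± 0.0645 (SD, n = 4) and 1.88% ± 0.0719 (SD, n = 5), did not differ detectably (difference 0.0376 percentage points, two-sided exact permutation test, p = 0.460). The 18 symbols of glycolytic enzymes matched 19 tested gene entries, so a symbol can count more than once. Of these entries, 16 were under 0, with a median of −0.04 and 0 called. *Eno3*, the enolase of muscle, led at −0.38 (SE 0.11), ahead of *Pfkm* at −0.12 (0.048).

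Neuronal lists had medians from −0.04 to 0.01. Under 0 were 7 of 18 layer markers of excitatory neurons (median 0.01), 14 of 24 interneuron markers (−0.01), 6 of 11 glutamate receptor subunits (−0.02), 6 of 12 GABA-A receptor subunits (0.01), 7 of 15 postsynaptic scaffolds (0.01) and 11 of 15 genes of presynaptic release (−0.04). With each of the 9 libraries left out, the medians of the layer, interneuron, glutamate receptor and scaffold lists took either sign (interneuron markers from −0.07 to 0.035), and that of presynaptic release ran from −0.05 to −0.02. None of the members was called by edgeR, and 1 had an unadjusted p under 0.05, against 4.37% of all tested genes. That was *Dlg4*, the main scaffold of excitatory synapses, at 611 CPM on average in the wild-type and 749 CPM in the *Setd1a*+/- libraries (log2 fold change 0.29, SE 0.13). Wild-type replicates 3 and 4 were low, at 436 and 413 CPM, while replicates 1 and 5, at 791 and 805 CPM, lay above all *Setd1a*+/- libraries. *Foxp2* (0.22, 0.20), *Dlx1* (−0.14, 0.17) and *Gabrd* (−0.16, 0.085) lay within the spread between mice. Of 10 genes with rare variants in schizophrenia, 3 were under 0, with a median of 0.03 (0.0135 to 0.0382 with each library left out). After *Setd1a* the smallest p belonged to *Cacna1g*, at −0.12 (0.12).

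Glial lists held no gene called in the main fit. Of 14 astrocyte markers, 13 were under 0, with a median of −0.03 (−0.07 to −0.02 with each library left out). Their sum was 2905 to 3172 CPM in the 4 wild-type and 2804 to 3146 CPM in the 5 *Setd1a*+/- libraries, which overlapped, with *Apoe* the most abundant. All *Setd1a*+/- values of *Apoe* lay below all wild-type values (721 and 631 CPM on average; log2 fold change −0.19, SE 0.20; adjusted p of 1 by edgeR), and it was called in the fit of the 9 P7 libraries alone (adjusted p of 0.034 by edgeR). Of 14 myelin genes, 11 were under 0, with a median of −0.12 that became −0.04 without wild-type replicate 4. *Mobp*, a protein of compact myelin, had a log2 fold change of −0.62 (SE 0.27), with 2.64, 1.19, 3.86 and 2.87 CPM in the wild-type and 0.866, 1.91, 1.95, 2.33 and 1.57 CPM in the *Setd1a*+/- libraries. Oligodendrocyte precursor markers were under 0 for 6 of 8, with a median of −0.07 (−0.09 to −0.04 with each library left out), and microglia markers for 9 of 14, with a median of −0.01 that took either sign with a library left out (*Siglech*, at 0.32 with an SE of 0.18, had the smallest p). Endothelial and pericyte markers were under 0 for 5 of 16, with a median of 0.03 (0.00143 to 0.0601 with each library left out). None of the members of these 5 lists was called by edgeR in the main fit. *Mobp* and *Opalin* had an unadjusted p under 0.05, as did 4.37% of all tested genes.

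Markers of neighbouring tissue differed between mice within each genotype. Striatum markers, led by *Pde10a*, summed to 205.2, 258, 456 and 222 CPM in wild-type replicates 1, 3, 4 and 5 and to 661, 442, 264, 212 and 241 CPM in *Setd1a*+/- replicates 1 to 5. The ranges overlapped, although 13 of 13 members had a log2 fold change over 0, with a median of 0.40 that became 0.02 without *Setd1a*+/- replicate 1 and 0.81 without wild-type replicate 4. Olfactory bulb markers, led by *Cdhr1*, ran from 61.3 to 309 CPM in the wild-type and from 39.8 to 208 CPM in the *Setd1a*+/- libraries. Of their 5 members, 5 were under 0, with a median of −0.49. It became 0.01 without wild-type replicate 1 and −0.808 without *Setd1a*+/- replicate 5. Meningeal fibroblast markers, led by *Igf2*, were over 0 for 8 of 8, with a median of 0.18 (0.141 to 0.251 with each library left out). Their sums were 463 to 586 CPM in the wild-type and 523 to 671 CPM in the *Setd1a*+/- libraries. Thalamus markers, led by *Slc17a6*, were over 0 for 5 of 6, with a median of 0.193 (0.122 to 0.207 with each library left out). Sums of the thalamus markers did not overlap, at 72.4 to 78.9 CPM and 80.3 to 87.1 CPM. *Prkcd* had the smallest p among them (log2 fold change 0.34, SE 0.13; adjusted p of 0.693 by edgeR). In the fit of the 9 P7 libraries alone *Prkcd* was called (adjusted p of 0.042 by edgeR). None of the members of these 4 lists was called in the main fit, and the part of dissection in the genotype differences was not tested.

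With wild-type replicate 2 included, 120 of 16330 genes were called by edgeR (0.735%), 118 lower (0.723%) and 2 higher (0.0122%) in *Setd1a*+/- cortex. All 7 genes called without it were among the 118. The total was unstable, at 30 to 212 genes when 1 of the other P7 libraries was left out. Wild-type replicate 2 had the highest value of all 10 libraries for 100 of the 118 lower genes. In 55 of the 118, it lay more than 2-fold above the mean of the other wild-type libraries. These 55 had a median log2 fold change of −2.45 with it and −0.09 without it, 32 of them kept a value under 0 without it, and 0 were then called, a change that follows in part from how the 55 were chosen. In the other 63, the median was −0.32 with it and −0.29 without it, all 63 kept a value under 0, as the choice of these genes makes likely, and 7 were called.

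The genes with the smallest p that were called only with wild-type replicate 2 were *Irx3*, *Mobp*, *En2*, *Cnpy1* and *Mybpc3*. *En2*, a patterning gene of midbrain and cerebellum, had a log2 fold change of −6.10 with it (SE 1.1) and of 0.93 without it (SE 0.62). Its level was 54.6 CPM in that library and at most 0.209 CPM in the other 9. *Irx3* moved from −4.40 to −1.29, *Mobp* from −3.63 to −0.62, *Cnpy1* from −4.95 to −0.33 and *Mybpc3* from −4.46 to −0.20. Both higher genes, *Ptprh* and *Gm14418*, had similar values with it (0.68 and 0.92) and without it. The lists with the most members called with it were the cerebellum and midbrain markers, with 5 of 8 tested, and the myelin genes, with 4 of 14, against 0.735% of all genes.

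**Figure D3:**
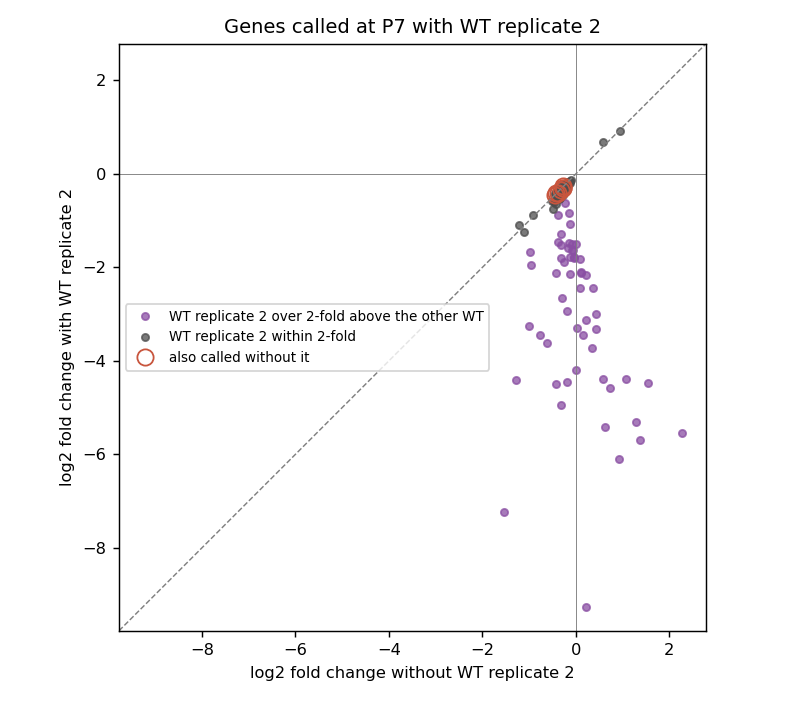
Log2 fold change of the 120 genes called with wild-type replicate 2, with that library (vertical axis) and without it (horizontal axis), with 1 point per gene and the line of equal values dashed. Genes at which that library lay over 2-fold above the other wild-type libraries fall mostly far below the line, as their choice by that library makes likely, while the 7 genes also called without it (circled) lie close to it.

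The genes called at P7 were compared with the ages before and after. All 7 had a log2 fold change under 0 at E14, E18, P35 and P70 too, in separate mice. Of all tested genes, 61.4%, 44.33%, 47.73% and 48.44% lay under 0 at these ages. The values of the 7 ran from −0.33 to −0.18 at E14, from −0.27 to −0.01 at E18, from −0.44 to −0.27 at P7, from −0.31 to −0.12 at P35 and from −0.48 to −0.16 at P70. Of the 7, 3 were called at E14, 0 at E18, 1 at P35 and 4 at P70 by edgeR in the same fit, where 32, 48, 5 and 41 of all 16396 genes were called. An unadjusted p under 0.05 was reached by 7, 5, 7 and 7 of them and by 2044, 2105, 625 and 1212 of all genes. Although the methods give males, E14 wild-type replicate 5 (60159 counts of *Xist*, 0 of the Y-linked genes) and E18 wild-type replicate 2 (55644 and 11) were unlike male tissue, and both entered the fit. In a fit without both, chosen after seeing the data, 9 genes were called at P7, the 7 among them, and all 7 kept a value under 0 at each age. Of the 7, 5 were then called at E14, 0 at E18, 1 at P35 and 4 at P70. Of all 16382 genes, 7.11% were then called at E14, 1.17% at E18, 0.0305% at P35 and 0.348% at P70, against 0.195%, 0.293%, 0.0305% and 0.25% with both, and 7, 3, 7 and 7 of the 7 had an unadjusted p under 0.05, so the counts at E14 and E18 depend on these libraries. At P7 the 7 genes were chosen for being low, so a larger value there than elsewhere is no sign of a stronger effect.

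**Figure D4:**
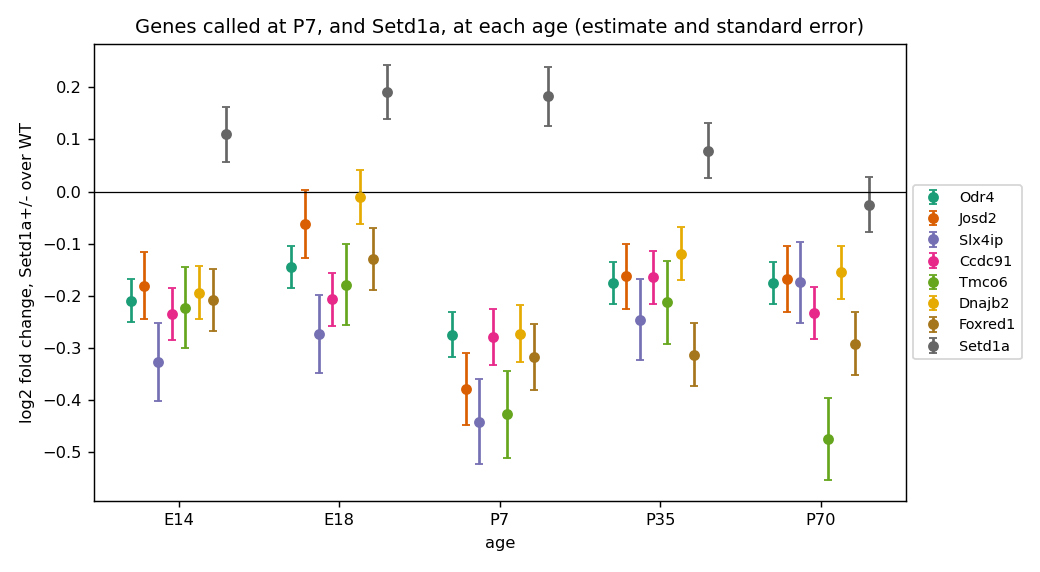
Log2 fold change of *Setd1a*+/- over wild-type, with its SE, for the 7 genes called at P7 and for *Setd1a* at each of the 5 ages. Each of the 7 lies under 0 at every age, nearest to it for *Dnajb2* at E18 (−0.01).

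By edgeR, the test of the difference itself called no gene between P7 and either E18 or P35. Between P7 and E18, 0 of 16396 genes were called by edgeR, limma-voom and limma-trend, 948 had an unadjusted p under 0.05 in edgeR, and DESeq2 called 3. The 3, named after their values were seen, were *Gpr37l1*, an astrocyte receptor, *Ptgs2*, the inducible cyclooxygenase, and *Gpi1*, a glycolytic isomerase, with edgeR estimates of −0.94, 2.28 and −0.39 (adjusted p = 0.273, 0.410 and 0.238). Without E18 wild-type replicate 2 the count by edgeR was 0 as well. Between P7 and P35, 0 genes were called by edgeR, limma-voom, limma-trend and DESeq2, and 177 had an unadjusted p under 0.05 in edgeR. *Dnajb2* and *Josd2* had the smallest p against E18 among the 7, with differences of −0.26 and −0.32 (adjusted p = 0.590 and 0.596, edgeR). *Col11a2*, a collagen chain, measured 23.7 to 31.2 CPM in the wild-type and 17.4 to 21.6 CPM in the *Setd1a*+/- libraries (log2 fold change −0.46, SE 0.13), and its difference from E18 was −0.75 (adjusted p = 0.273, edgeR). Its effect at P7 was called with wild-type replicate 2 and in the 9 P7 libraries alone.

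Other genes that had been named earlier, from results across all ages of this series, gave values at P7 without a call in the main fit. The P7 libraries are part of that series, so these values are no independent check. *Zcwpw1*, a reader of methylated histone H3, measured 5.48, 5.06, 5.01 and 5.53 CPM in the wild-type and 4.38, 3.67, 3.34, 3.91 and 4.32 CPM in the *Setd1a*+/- libraries. The genotypes did not overlap (log2 fold change −0.42, SE 0.11; adjusted p of 0.190 by edgeR). With wild-type replicate 2 it was called (adjusted p of 0.0109 by edgeR). *Phlda3*, a p53 target, ranged from 16.3 to 19.2 CPM and from 19.3 to 23.0 CPM (0.22, SE 0.089; adjusted p of 0.843 by edgeR). *Rnf17*, a gene of the germ line, overlapped between the genotypes at 1.08 to 1.64 CPM and 1.16 to 2.16 CPM (0.26, SE 0.29).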

How the data were processed

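Polyadenylated RNA was sequenced as read pairs in a single batch. By the study's methods and the file headers, the authors removed adapters (Trimmomatic), mapped the reads to GRCm38 (STAR) and assigned fragments to the exons of Ensembl 102 (featureCounts 1.4.6-p2), ignoring strand and counting a fragment for every gene it overlapped. The deposited values are these raw counts, without normalization. Gene types came from GENCODE vM21, which held 55141 of 55487 genes, 21897 of them protein-coding. Genes passing filterByExpr (minimum count 10) were scaled by TMM and tested by the quasi-likelihood test of edgeR 4.0.16 in R 4.3.3, in 1 fit of 49 libraries with 10 groups, with Benjamini-Hochberg adjustment, and the fit was tested on simulated data. Totals of 37467708 to 39639802 counts per library set the counting precision. Members and gene lists were chosen with earlier results of these data known. Lists were described by counts and medians, without a test. Named genes were the 10 lower and 10 higher genes of smallest p, *Setd1a*, *Setd1b*, *Gm49388* and *Nnt*, the 3 of smallest p in each list, the 5 called only with wild-type replicate 2, the 10 highest in that library, and genes earlier named across ages. Alternatives were limma 3.58.1 (voom and trend), DESeq2 1.42.0 and its size factors, library size only, other filters and thresholds, all annotated genes, P7 libraries alone, a replicate block and each library left out. Plots came from Python 3.11.15 and matplotlib 3.10.9.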

Additional observations from a re-analysis of the deposited data

Results flagged for a closer look

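In 64 groups of 4 or 5 libraries, a sample far from the others of its genotype was looked for, and 13 were found, by a rule that flags about 1 group in 20 by chance. Wild-type replicate 2 accounted for 7 of them. Its hindbrain and choroid plexus transcripts were known beforehand, and genes were named for their values at P7, so the number found is not evidence of more flags than chance gives. Its summed CPM was 665 for choroid plexus markers (10.1 to 13.97 in the other wild-type libraries), 47.6 for hindbrain markers (0.912 to 1.74), 1130 for cerebellum and midbrain markers (124 to 157.5), 244 for thalamus markers (72.4 to 78.9), 1630 for myelin genes (234 to 294), 9.76 for hypothalamus markers (14.9 to 15.6) and 885 for frontal cortex identity markers (1580 to 1670). The libraries compared held the other 6. Striatum markers summed to 456 CPM in wild-type replicate 4 (205.2 to 258 in the others of its genotype, wild-type replicate 2 included). Erythroid markers, the hemoglobins among them, summed to 284 CPM in wild-type replicate 5 (128 to 162.4) and to 268 CPM in *Setd1a*+/- replicate 2 (107 to 153). Among the higher genes named, *Fbxo24* was at 0.244 CPM in *Setd1a*+/- replicate 1 (0.575 to 0.641), *Slc25a48* at 0.0829 CPM in wild-type replicate 5 (0.0522 to 0.0553), and *Gjb1* at 1.02 CPM in wild-type replicate 5 (0.728 to 0.774). Their causes were not tested.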

How the results depend on the processing

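The 7 genes called at P7 by edgeR became 120 with wild-type replicate 2, 29 with the 9 P7 libraries alone (25 lower and 4 higher, 5 of the 7 among them), 0 with the 10 P7 libraries alone, 1 with limma-voom (*Odr4*), 13 with DESeq2 (the 7 among them) and 12 at an adjusted p under 0.1. The cause of these moves was not tested. With a replicate block, 0 genes were called and the largest adjusted p of the 7 was 0.383; correlations of same-numbered libraries were −0.188, 0.169, −0.134 and 0.0885 at P7 and −0.177 to 0.46 at the other ages, and whether the numbers follow litters is not given in the sources used here. The count was 7 or 8, the 7 among them, with limma-trend, DESeq2 size factors, no filter, a minimum of 10 CPM in 5 libraries and all annotated genes, and 8 with library size only, which lost *Foxred1* (adjusted p = 0.0578). Leaving out 1 library gave 1 to 6 genes, and leaving out E14 wild-type replicate 5 and E18 wild-type replicate 2, added after seeing the data, gave 9. In an analysis chosen after seeing the data, leaving out 1 of the other P7 libraries moved the 120 to 30, 49, 32, 44 and 62 (without *Setd1a*+/- replicates 1 to 5), to 212 and 198 (without wild-type replicates 3 and 5), and by less than 1.5 times without wild-type replicates 1 and 4. Against E18, DESeq2 called 3 genes and all other settings 0. *Setd1a* stayed above 0 and uncalled in every setting (0.16 to 0.20, adjusted p from 0.0635 to 0.934). The difference in the mitochondrial share stayed above 0 (0.00718 to 0.0623 percentage points, exact permutation p from 0.250 to 0.857). Among 30 genes followed through the alternatives, signs turned for *Opalin* (−0.13) with wild-type replicate 2. They turned for *Nnt* with it (−0.0781 in 50 and −0.0788 in 10 libraries) and with 1 library left out (−0.0597 to 0.117). Other named genes also turned with wild-type replicate 2, *Dlx1* (0.103) among them. Counting error limits genes with few counts, *Opalin*, *Abra* and *Slc25a48* among them.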

Other observations

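Lists on stress, activity and time of day gave no call at P7 by edgeR. Circadian clock genes had a log2 fold change under 0 for 11 of 14, with a median of −0.04, and *Per3* and *Dbp*, which are driven by the clock, stood at −0.25 (SE 0.13) and −0.28 (0.18). Hypoxia-inducible genes were under 0 for 3 of 10, with a median of 0.05, and *Egln3*, an oxygen-sensing hydroxylase, was higher in all 5 *Setd1a*+/- libraries than in the 4 wild-type libraries (0.24, SE 0.11; adjusted p of 1 by edgeR). Immediate early genes, which respond to neuronal activity, were under 0 for 6 of 13, with a median of 0.01. It took either sign with a library left out (−0.061 to 0.0528). Among 14 p53 target genes, 7 were under 0. An unadjusted p under 0.05 was reached by 2 higher members, *Phlda3* (0.22) and *Eda2r* (0.742), and 1 lower, *Mdm2* (−0.13). Among all tested genes, 1.17% were higher and 3.2% lower at that threshold. With wild-type replicate 2, *Eda2r* turned to −0.688. Cell cycle genes were under 0 for 5 of 19 without wild-type replicate 2 (median 0.03) and for 19 of 19 with it (median −0.43). The former median ran from −0.0173 to 0.0798 with each of the 9 libraries left out. Hypothalamus markers were under 0 for 3 of 6 and erythroid markers for 5 of 6, the latter with a median of −0.15. That median became 0.11 without wild-type replicate 5 and −0.425 without *Setd1a*+/- replicate 2. Early-stage markers were under 0 for 1 of 8 (median 0.07) and late-stage markers for 7 of 9 (median −0.08). Cholesterol synthesis enzymes were under 0 for 10 of 20, with *Tm7sf2* at −0.17 (SE 0.088).

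The values rest on 5 and 4 mice at 1 age, and p-values draw on the spread within all 10 groups of the fit. Litters were not given in the sources used here, so litter and genotype cannot be told apart where they coincide. Overlapping genes and near-identical copies share fragments, and counts over whole genes do not separate the transcripts of the altered allele. The library left out was chosen for its marker transcripts, and the other libraries vary in striatal, olfactory bulb and erythroid transcripts. Bulk tissue gives no cell types.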
